A study of Mus musculus with 12 samples.

Results

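The transcription factors that set regional identity along the gut were followed in mouse intestinal tumor organoids with and without SMAD4. The group held 9 named genes among the 24906 genes listed in each expression table. Of these, 6 are intestinal factors (Cdx1, Cdx2, Hnf4a, Hnf4g, Gata4 and Gata6) and 3 are foregut factors (Sox2, Pax9 and Pdx1). They were taken by name, with no threshold on a measured value, at a time when earlier results of these data were known. RNA-Seq covered 12 bulk libraries of tumor organoids of genotype Smad4KO;BRAFV600E/+ that carried pINDUCER-SMAD4, a lentivirus from which doxycycline (dox) switches on SMAD4. All libraries, controls included, share the Smad4 deletion, the activated Braf allele and the construct by genotype label. The deletion was driven by Villin-CreERT2, which acts in the intestinal epithelium after tamoxifen, and the labels give small intestine as the tissue. The position of each tumor along the intestine is not given in the sources used here.

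The culture environment was either BME, a gel of basement membrane proteins in which organoids grow in 3D, or bare culture plastic. They received 4 µg/mL dox for 48 h or were left untreated. The BME set held untreated lines 682, 700 and 889 (3 libraries), dox-treated lines 700 and 889 (2 libraries), and line 682 labelled as mock dox (1 library). The plastic set held lines 560, 700 and 889, each untreated and dox-treated (6 libraries). The title and genotype of the mock library read like those of an induced library, and what mock stood for is not given in its labels, so it was placed with the controls, following the study's own count, and is shown apart in every pair. A line number stands for tumor organoids under 1 number, each line was sampled once per condition, and lines 700 and 889 occur in both environments.

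The intestine and the foregut are patterned by different homeodomain, GATA and nuclear receptor proteins. CDX factors hold the intestinal fate, HNF4 factors drive enterocyte genes, and GATA4 and GATA6 act along the small intestine, where GATA4 is confined to its proximal part in the healthy adult. SOX2 marks the stomach and esophagus, PAX9 the pharyngeal pouches and esophagus, and PDX1 the pancreas, antrum and duodenum. SMAD4 is the shared partner of the SMAD proteins that carry TGFβ and BMP signals to DNA.

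Expression is given as FPKM, a fragment count scaled to the length of the transcript and to the depth of the library, so levels can be compared between genes. Changes are differences of log2(FPKM + 1), which understate the change of low genes. The low values imply an effective depth of 12720885 to 15693518 fragments for the BME libraries and 15429061 to 20332881 for those on plastic, and 15723 to 16805 genes were above 0. Smad4 was higher with dox in 5 of 5 pairs, by 1.28 to 4.88 (log2), and Id1, a BMP target, by 1.76 to 3.02. In the mock pair Smad4 differed by 0.19 and Id1 by -0.46. The epithelial label held, since the summed level of 6 epithelial markers was 3817 to 9442 FPKM in BME and 11551 to 17163 FPKM on plastic. The sum of 10 mesenchymal markers was at most 7.44 FPKM, and that of 5 endothelial markers at most 3.65 FPKM. Of the 8 immune markers, whose sum was 3.69 to 39.5 FPKM, Cd68, a lysosomal protein abundant in macrophages, made up most, while the leukocyte marker Ptprc was at most 0.096 FPKM. Cd68 was 2.70 FPKM untreated and 38.7 FPKM dox in line 889 on plastic, a difference of 3.42, and differed by -0.52 to -0.24 in the other 4 dox pairs. All 6 epithelial markers were higher in both BME dox pairs, with sums of 7430 to 9442 FPKM against 3817 to 4808 FPKM in the controls, and their part in the results was not tested. In bulk libraries fewer cells of a type and less RNA per cell cannot be told apart.

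Hnf4a was the highest member in 5 of 6 BME libraries, and Sox2 was at or near 0 throughout. Mean levels in BME (SD, n = 6 libraries) were 102 ± 21.9 FPKM for Hnf4a, 74.5 ± 13.8 for Cdx2, 54.1 ± 40.8 for Gata4, 29.3 ± 37.1 for Gata6 and 16.5 ± 11.9 for Pax9. The others lay lower, at 6.29 ± 1.91 FPKM for Hnf4g, 3.59 ± 2.78 for Pdx1, 3.06 ± 4.77 for Cdx1 and 0.0042 ± 0.010 for Sox2. On plastic the mean of Cdx2 was 54.7 ± 40.0 FPKM, before Gata6 at 46.2 ± 53.1, Hnf4a at 33.2 ± 20.2, Gata4 at 29.5 ± 42.3 and Pax9 at 16.9 ± 16.3. Hnf4g (1.54 ± 1.67 FPKM), Pdx1 (0.844 ± 1.33), Cdx1 (0.0446 ± 0.109) and Sox2 (0.0394 ± 0.0619) followed. These means pool lines that differ. In BME Gata4 exceeded Cdx2 in all 4 libraries of lines 682 and 700, and Gata6 was the highest member in dox line 889. On plastic Cdx2 was highest in 3 libraries, both of line 560 and untreated line 889, Gata4 in both libraries of line 700 and Gata6 in dox line 889. The mean of Hnf4a in BME exceeded that of Cdx2 by more than either SD. All other neighbours in these orders, in BME and on plastic, differed by less than the larger of their SDs. The SD was close to or above the mean in at least 1 environment for every member other than Cdx2 and Hnf4a.

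**Figure D1:**
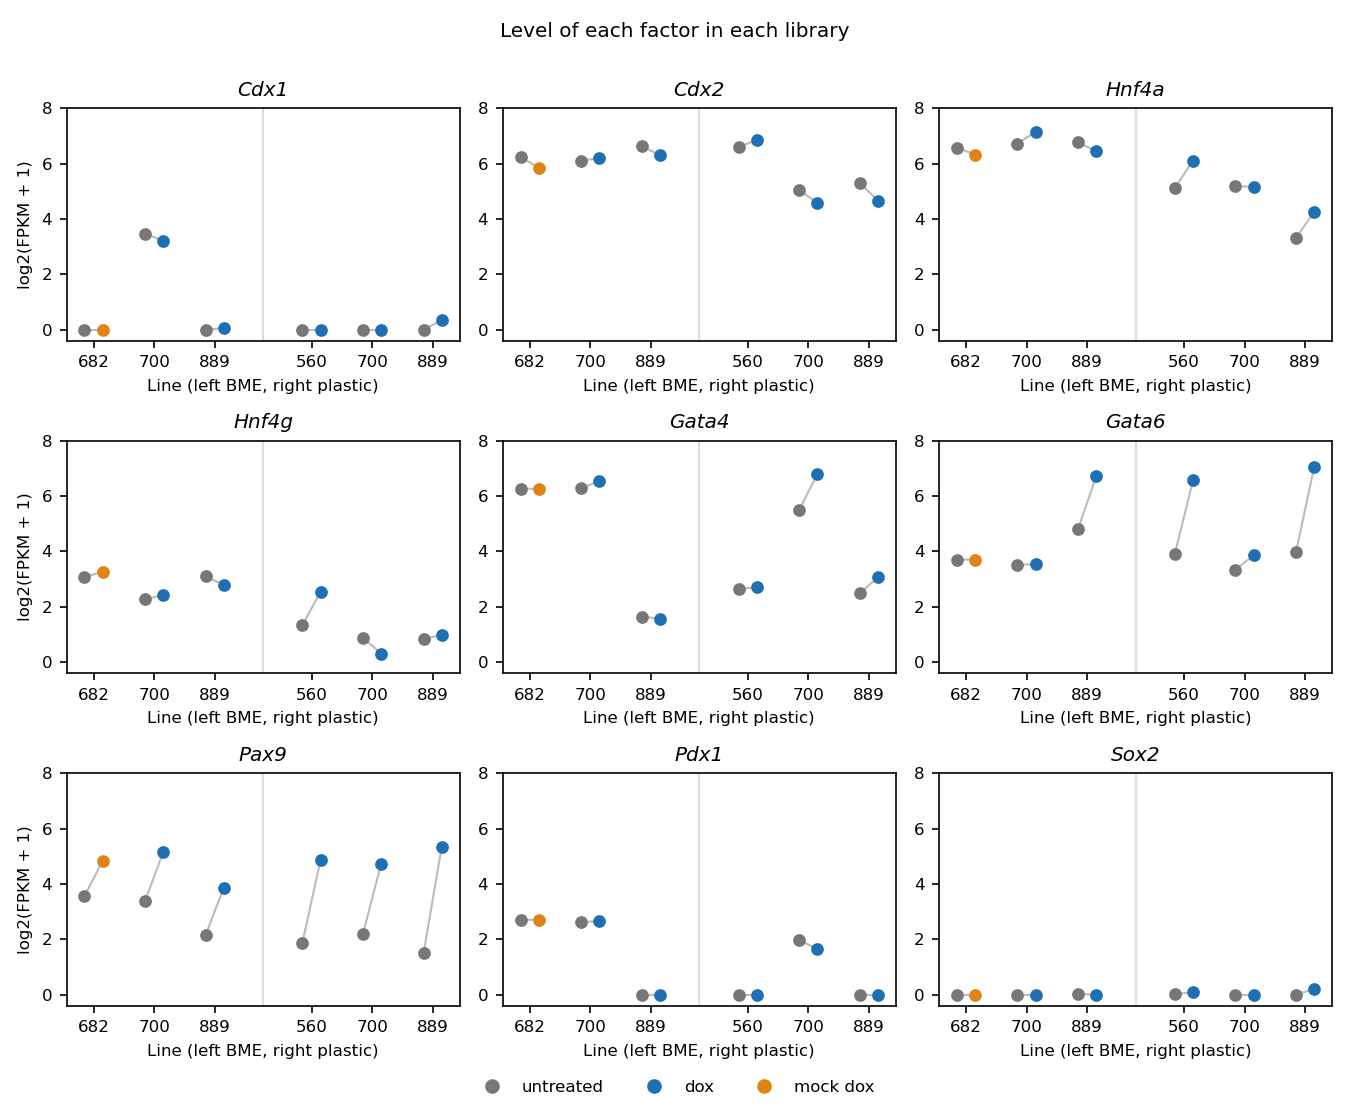
Level of the 9 factors in every library, as log2(FPKM + 1) on the vertical axis, by organoid line on the horizontal axis, with BME to the left and plastic to the right of the grey line. Gray points are untreated, blue points dox and orange points the mock dox library, and a line joins the libraries of 1 organoid line. Pax9 steps up by 1.27 or more in all 6 pairs and Gata6 by as much in the pairs of lines 889 and 560, while Gata4 and Pdx1 separate the lines and Cdx1 stands out in line 700 in BME.

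Pax9, a paired-box factor of the pharynx and esophagus, was the foregut factor that rose with dox. On plastic, lines 560, 700 and 889 held 2.67, 3.59 and 1.81 FPKM untreated, and 28.4, 25.6 and 39.5 FPKM after dox. The arms did not overlap, and the dox values lay 7.12-fold to 21.8-fold above their own untreated line. The change was 3.13 (SE 0.27), which limma called with a Benjamini-Hochberg adjusted p of 0.0393. It was the 1 member called of 7 tested on plastic, where 0.0324% of all 12333 genes were called (4 genes, and 7 with the line as a block). The other 3 genes were Ly6m and Fcer2a, which rose, and 2210011C24Rik, which fell. The size was stable, at 2.95 to 3.30 with any 1 library left out, and the call was not: it was lost with the line as a block (adjusted p = 0.0868), with no filter on low values (adjusted p = 0.0872), and without any 1 library other than dox line 700 (adjusted p from 0.0632 to 0.226). The pair of line 889 on plastic, where Cd68 was higher by 3.42, had the largest change of Pax9 (3.85) and of Gata6 (3.08). The other immune markers were at most 0.47 FPKM in its dox library, and Csf1r and Itgam were lower there than untreated. Without the dox library of that pair the Pax9 change was 2.95 (limma adjusted p = 0.226). In line 560 on plastic, where Cd68 differed by -0.25, Gata6 was higher by 2.66. Whether the Cd68 difference bears on the changes of Pax9 and Gata6 was not tested.

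In BME, Pax9 was 9.38 FPKM untreated and 34.5 with dox in line 700, and 3.43 and 13.5 FPKM in line 889. The changes of 1.77 and 1.71 differed by less than 0.1 between these lines. The mock pair of line 682 went from 10.8 FPKM to 27.5 FPKM, a change of 1.27, although Smad4 there was 8.88 and 10.3 FPKM. The mock value lay above the dox value of line 889, so the BME arms overlapped, and the limma change was 1.03 (SE 0.74, adjusted p = 0.959). Without the mock library it was 1.48, and with the line as a block and the mock library left out it was 1.74 (adjusted p = 0.236). Within every pair Pax9 stood near the top of all genes tested: its change exceeded that of 99.0% to 99.5% of genes in the 5 dox pairs and of 99.1% in the mock pair. Pax9 was thus higher in 5 of 5 dox pairs and in the mock pair as well. What moved it in the mock pair was not tested.

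The promoter windows of Pax9 and of Pdx1 and Cdx2, a foregut and an intestinal factor that are neighbours on chromosome 5 and did not pass the dox test, are shown because Pax9 was the member called. They were taken from RefSeq (a GRCm38.p6 table, which held 5 of the 9 members) and placed by exact match in NCBIM37, and each window is printed, 5′ to 3′ on the gene's strand, up to the first annotated exon base inside it. Capitals mark GGCGC, a GC-rich SMAD core, and the classical core CAGAC, read on either strand. The Pax9 window is chr12:57796208-57796457 on the plus strand and holds no exon base. It lies inside the annotated span of the gene (57792754 to 57813809), after the first annotated base, since the RefSeq start it precedes is not the first annotated one. The Pdx1 window is chr5:148081423-148081534 on the plus strand and the Cdx2 window chr5:148118847-148119075 on the minus strand.
Pax9: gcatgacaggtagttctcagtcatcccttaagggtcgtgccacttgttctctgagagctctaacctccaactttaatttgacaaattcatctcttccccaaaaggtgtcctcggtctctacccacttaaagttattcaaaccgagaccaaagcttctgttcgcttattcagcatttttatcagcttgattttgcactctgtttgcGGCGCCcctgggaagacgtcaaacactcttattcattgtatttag
Pdx1: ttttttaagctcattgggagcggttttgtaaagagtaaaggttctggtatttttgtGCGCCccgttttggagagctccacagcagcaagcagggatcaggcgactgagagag
Cdx2: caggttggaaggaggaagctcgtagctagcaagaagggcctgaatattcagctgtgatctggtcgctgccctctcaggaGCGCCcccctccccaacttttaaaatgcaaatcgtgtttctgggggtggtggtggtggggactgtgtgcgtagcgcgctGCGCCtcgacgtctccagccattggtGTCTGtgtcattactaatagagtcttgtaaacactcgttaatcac

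In Pax9 the run in capitals reads as GGCGC on both strands, overlapping, with its first bases 45 and 44 bases before the RefSeq start. Pdx1 held it once, 194 bases before the start. Cdx2 held it at 171 and 92 bases before the start, and CAGAC once, at 66 bases. Of 32851 RefSeq promoter windows of 250 bases, 32% hold GGCGC and 42.2% hold CAGAC on 1 strand or the other, so these matches are common letters and a description only. AGATAA (the motif of GATA factors, 9.99% of windows), TTTATNG (CDX, 9.81%), CAAAGTNCA (HNF4, 1.19%) and TATAAA (the TATA box, 12.4%) were searched on both strands and had no match in these windows.

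Sox2, the HMG-box factor of stomach and esophagus (chromosome 3, 34548927 to 34551383), was not detectably turned on. It was listed at 0 in 8 of 12 libraries. The other values were 0.0254 FPKM in untreated line 889 in BME, 0.0201 and 0.0600 FPKM in untreated and dox line 560 on plastic and 0.156 FPKM in dox line 889 on plastic. These correspond to about 1, 1, 3 and 6 fragments, and Sox2 was too low to enter the test in either environment.

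Pdx1, the homeodomain factor of pancreas and duodenum (chromosome 5, 148081535 to 148089584), was present or absent by line. In BME it was 5.51 and 5.51 FPKM in the untreated and mock libraries of line 682 and 5.17 and 5.32 FPKM in the untreated and dox libraries of line 700. It was listed at 0 in both libraries of line 889. On plastic it was 2.95 and 2.12 FPKM in untreated and dox line 700 and was listed at 0 in lines 560 and 889. Pairs therefore differed by -0.34 to 0.03 with dox while lines differed by all or nothing. Each value above 0 rested on about 150 to 345 fragments.

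Gata4 and Gata6, zinc finger factors of the same family, also split by line, in BME in opposite directions. In BME Gata4 (chromosome 14, 63817759 to 63890529) was 76.0 FPKM untreated and 75.5 FPKM mock in line 682, 76.8 FPKM untreated and 92.4 FPKM dox in line 700, and 2.14 FPKM untreated and 1.97 FPKM dox in line 889. On plastic it was 44.2 FPKM untreated and 110 FPKM dox in line 700, against 5.31 and 5.53 FPKM in line 560 and 4.59 and 7.41 FPKM in line 889. Lines 682 and 700 did not overlap with lines 560 and 889 at any value.

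Gata6 (chromosome 18, 11052508 to 11085633) was 12.02 FPKM untreated and 12.08 FPKM mock in line 682, and 10.5 FPKM untreated and 10.6 FPKM dox in line 700 in BME. Line 889 held 26.9 FPKM untreated and 104 FPKM dox. On plastic the untreated levels were close, at 14.1, 9.18 and 14.7 FPKM in lines 560, 700 and 889, and the dox levels were 94.4, 13.5 and 132 FPKM. Gata6 was thus higher with dox by 1.91, 2.66 and 3.08 in the 3 pairs of lines 889 and 560 and by 0.01 and 0.51 in the pairs of line 700. The mock pair of line 682 differed by 0.01.

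Over the 3 plastic lines the Gata6 change was 2.08 (SE 0.80), with a limma adjusted p of 0.583 and an unadjusted p of 0.0378. Without the dox library of line 700 it was 3.07 and was called (adjusted p = 0.0242). In BME it was 1.19 (SE 0.86, limma adjusted p = 0.959). Whether the dox change of Gata6 differs between lines was not tested. Gata4 differed by -0.08 to 1.30 over the dox pairs, with the largest value in line 700 on plastic. The unblocked limma change of Gata4 in BME was -1.06 (SE 1.84), and with the line as a block it was 0.092. Line 682, where Gata4 is high, has only control libraries in that fit.

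Summed over both factors, GATA expression was 87.3 to 103 FPKM in lines 682 and 700 in BME, with 86.2% to 89.7% of it from Gata4. Line 889 in BME held 29.0 FPKM untreated and 106 FPKM with dox, and 92.6% and 98.1% of it came from Gata6. On plastic the sum was 19.5, 53.4 and 19.2 FPKM in untreated lines 560, 700 and 889, and 99.9, 124 and 139 FPKM with dox. Gata4 made up 82.8% and 89.1% of it in line 700. In lines 560 and 889 the Gata4 share was 27.3% and 23.9% untreated and 5.53% and 5.33% with dox. The summed level was higher with dox in 5 of 5 pairs, through Gata4 in line 700 and through Gata6 in lines 560 and 889.

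**Figure D2:**
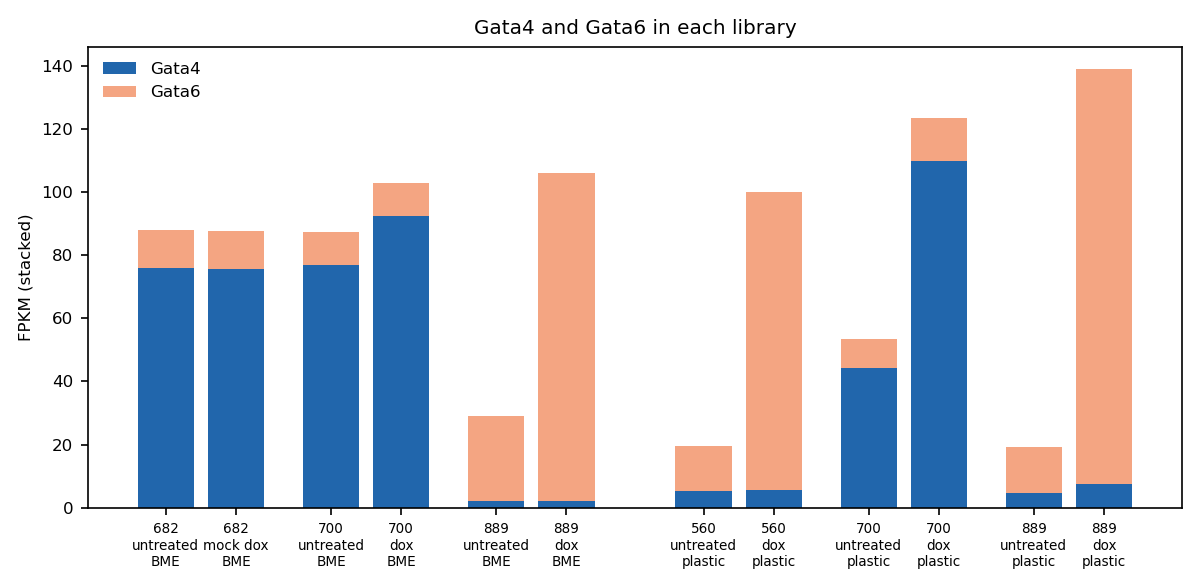
Gata4 (blue) and Gata6 (orange) in every library, stacked, in FPKM on the vertical axis, with 1 bar per library named by line, treatment and environment. Gata4 makes up most of the sum in lines 682 and 700 and Gata6 in lines 560 and 889, and the dox bars of lines 560 and 889 reach 99.9 to 139 FPKM from 19.2 to 29.0 FPKM untreated.

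Cdx2, the main intestinal homeodomain factor (chromosome 5, 148112381 to 148118846), was expressed in all 12 libraries. In BME it was 74.8 FPKM untreated and 56.4 FPKM mock in line 682, 67.8 FPKM untreated and 72.3 FPKM dox in line 700, and 98.2 FPKM untreated and 77.8 FPKM dox in line 889. On plastic it was 95.8 and 115 FPKM in line 560, 32.3 and 22.7 FPKM in line 700, and 38.4 and 24.3 FPKM in line 889, untreated first. The arms overlapped in both environments.

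The pairs of Cdx2 differed by -0.64 to 0.26, lower in 3 of 5 dox pairs, and its limma change in BME was 0.04 (SE 0.23, adjusted p = 0.993), beside -0.29 on plastic (SE 0.71, adjusted p = 0.952). Its paralog Cdx1 (chromosome 18, 61178516 to 61195853) was seen in 1 line and 1 environment. Cdx1 was 10.1 FPKM untreated and 8.28 FPKM dox in line 700 in BME, about 251 and 184 fragments. It was listed at 0 in line 682, in untreated line 889 and in 5 of 6 plastic libraries, line 700 included. The remaining values were 0.0382 FPKM in dox line 889 in BME and 0.268 FPKM in dox line 889 on plastic, about 1 and 7 fragments.

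Hnf4a, a nuclear receptor of the enterocyte program (chromosome 2, 163332544 to 163398646), was 94.3, 105 and 109 FPKM in untreated lines 682, 700 and 889 in BME. With dox, lines 700 and 889 had 141 and 85.6 FPKM, and the mock library had 79.3 FPKM. On plastic it was 33.7, 35.6 and 8.92 FPKM untreated and 68.0, 34.6 and 18.1 FPKM with dox in lines 560, 700 and 889. Hnf4a was about 2-fold higher with dox in lines 560 and 889 on plastic and level in line 700.

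The limma change of Hnf4a in BME was 0.19 (SE 0.24, adjusted p = 0.963), beside 0.63 on plastic (SE 0.65, adjusted p = 0.854). Hnf4g, its paralog with an overlapping role in enterocytes (chromosome 3, 3508030 to 3659775), lay far below it. It was 3.82 to 8.60 FPKM in BME and 0.239 to 4.85 FPKM on plastic, where the highest value was dox line 560. Hnf4a made up 90.2% to 97.0% of the summed Hnf4 level in BME and 91.8% to 99.3% on plastic. The pairs of Hnf4g differed by -0.58 to 1.21, higher in 3 of 5 dox pairs.

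**Figure D3:**
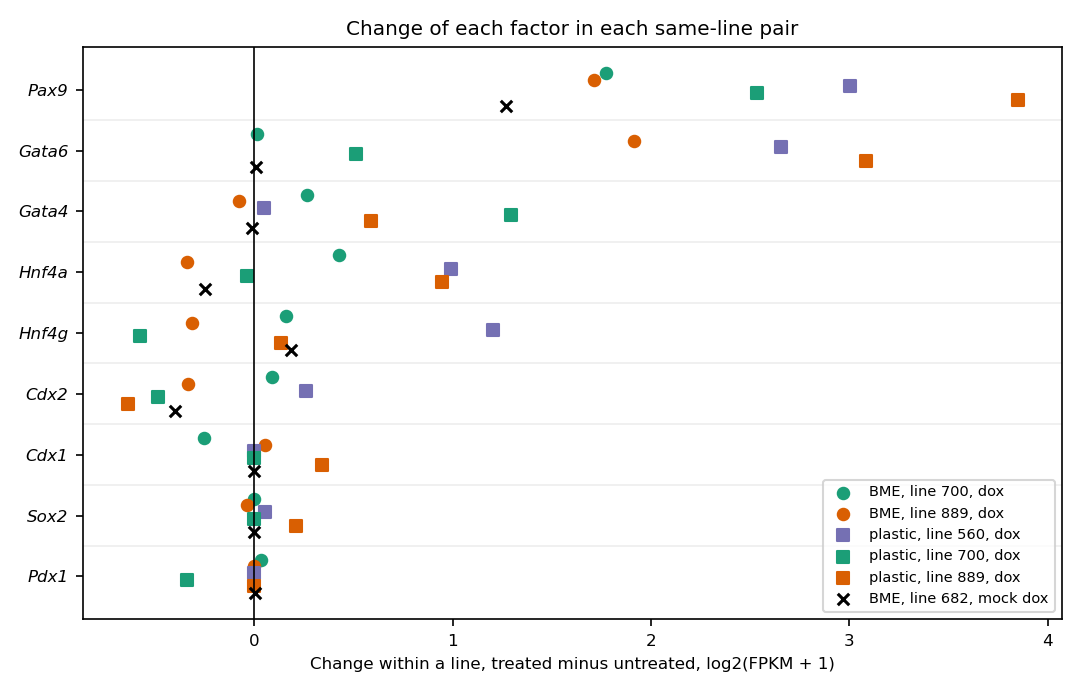
Difference between the treated and the untreated library of a line on the horizontal axis, as log2(FPKM + 1), for each factor in a row. Circles are BME dox pairs, squares plastic dox pairs and crosses the mock pair, and the colors mark the lines. All 6 points of Pax9 lie at or above 1.27, the 3 high points of Gata6 belong to lines 889 and 560, and the other factors lie on both sides of 0 or at it.

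Across the group, limma called 0 of 8 tested members with dox in BME, where 0.0231% of 12996 genes were called (3 genes, and 0 with the line as a block). These were Hist2h3c1, Mir466k and Mir6345. At an unadjusted p under 0.05 and a change over 1, 0 members and 0.954% of all genes passed. No member was called between environments in its dox change either: 0 of 7 tested members and 0 of 11977 genes were called by limma (0%). At an unadjusted p, Pax9 alone passed among the members, beside 1.33% of all genes. The Pax9 change on plastic exceeded that in BME by 2.10 (SE 0.83, unadjusted p = 0.0277, adjusted p = 1.00). In the lines present in both environments the changes were 1.77 in BME and 2.53 on plastic for line 700, and 1.71 and 3.85 for line 889. For the other members the difference of changes ranged from -0.33 (SE 0.83) for Cdx2 to 1.70 (SE 2.43) for Gata4, errors that leave room for differences of more than 1 in either direction.

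Lines were also compared with each other. The difference of line 700 minus line 889, with dox as a term and 2 libraries per line, was tested after the values had been seen. In BME limma called 4 of 8 tested members, against 9.46% of all genes. Gata4 (4.80, SE 0.13, adjusted p = 0.00044), Cdx1 (3.31, SE 0.17, adjusted p = 0.00247) and Pdx1 (2.64, SE 0.14, adjusted p = 0.00266) were higher in line 700, and Gata6 (-2.23, SE 0.44, adjusted p = 0.0315) was lower. On plastic 1 of 7 tested members was called, against 0.787% of all genes. This was Gata4, again higher in line 700 (3.37, SE 0.35, adjusted p = 0.0295). Pdx1 (1.81, SE 0.25, adjusted p = 0.0624) and Gata6 (-1.91, SE 0.63, adjusted p = 0.444) had the same sign and did not pass. The other tested members were not called between the lines. Of these, Pax9 differed by 1.26 in BME (SE 0.42, adjusted p = 0.0957) and 0.05 on plastic, and Hnf4a by 0.33 in BME and 1.39 on plastic (SE 0.33, adjusted p = 0.249). Cdx2 (-0.32 in BME, -0.17 on plastic) and Hnf4g (-0.60 and -0.31) differed by less than 1 in both. The calls between lines rest on few libraries, and their p-values measure the spread within lines, with 1 line on each side. In BME no member was called without dox or untreated line 700, Gata4 alone without dox line 889, and Cdx1, Gata4 and Gata6 without untreated line 889. Without the mock or untreated library of line 682, Pax9 was called in place of Gata6. The 1229 genes called in BME became 0 when either library of line 700 was left out, 43 when dox line 889 was and 108 when untreated line 889 was. On plastic 97 genes were called, 0 when either library of line 560 was left out. The count was 146 with dox line 700 left out, where Pdx1 was called as well, 270 with untreated line 700 left out, where Gata6 was, and 176 with untreated line 889 left out. The Gata6 call in BME was also lost with no filter on low values (adjusted p = 0.0748).

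In all, 78 genes were called between the lines in both environments, 6.35% of the BME calls and 80.4% of the 97 plastic calls, and all 78 had the same direction. Among the gene lists kept for this report, 8 genes met this, of which Gata4 was a member, and the other 7 were named after their values were seen. Tbx1, a T-box factor of the pharynx, was 141 to 173 FPKM in line 889 and at most 2.18 FPKM in lines 682 and 700 in BME. On plastic Tbx1 was 51.7 to 160 FPKM in lines 560 and 889 and at most 0.47 FPKM in line 700. Isx, an intestine-specific homeobox gene, was 79.2 and 107 FPKM in line 889 and 1.85 to 5.89 FPKM in lines 682 and 700 in BME, and on plastic it was 109 and 119 FPKM in line 560, 24.5 and 12.8 FPKM in line 889 and 2.17 and 0.98 FPKM in line 700, untreated first. Tbx1 and Isx were therefore higher in lines 560 and 889, the lines with low Gata4, than in line 700, with Isx on plastic lower in line 889 than in line 560.

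Cybrd1, the iron reductase of the duodenum, went the other way, with 164 to 214 FPKM in lines 682 and 700 and at most 0.51 FPKM in line 889 in BME. On plastic Cybrd1 was 8.18 and 8.74 FPKM in line 700 and at most 0.14 FPKM in lines 560 and 889. Aqp5, a water channel of antral glands, was 178 to 666 FPKM in lines 682 and 700 and 6.74 and 19.5 FPKM in line 889 in BME. On plastic Aqp5 was 45.2 and 20.5 FPKM in line 700, 24.6 and 9.39 FPKM in line 560 and 1.83 and 1.40 FPKM in line 889, untreated first, so lines 700 and 560 overlapped and Aqp5 did not follow Gata4 there. Apob, the apolipoprotein of chylomicrons, was 256 and 407 FPKM in line 700 and at most 4.01 FPKM in lines 560 and 889 on plastic. In BME Apob was 38.8 to 89.0 FPKM in lines 682 and 700 and 5.14 and 27.1 FPKM in line 889. For HOX genes, which record position along the body axis, Hoxb6 was 2.39 and 2.42 FPKM in line 889 in BME and 3.66 to 4.25 FPKM in lines 560 and 889 on plastic, and it was listed at 0 in lines 682 and 700. Hoxd8 was 3.21 to 5.11 FPKM in line 700 over both environments, 1.18 and 1.32 FPKM in line 682 and at most 0.22 FPKM in lines 560 and 889. The size of each difference came from lines 700 and 889 alone. Lines 682 and 560 were in the fits and entered the errors and the calls. The source of the differences between lines was not tested.

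**Figure D4:**
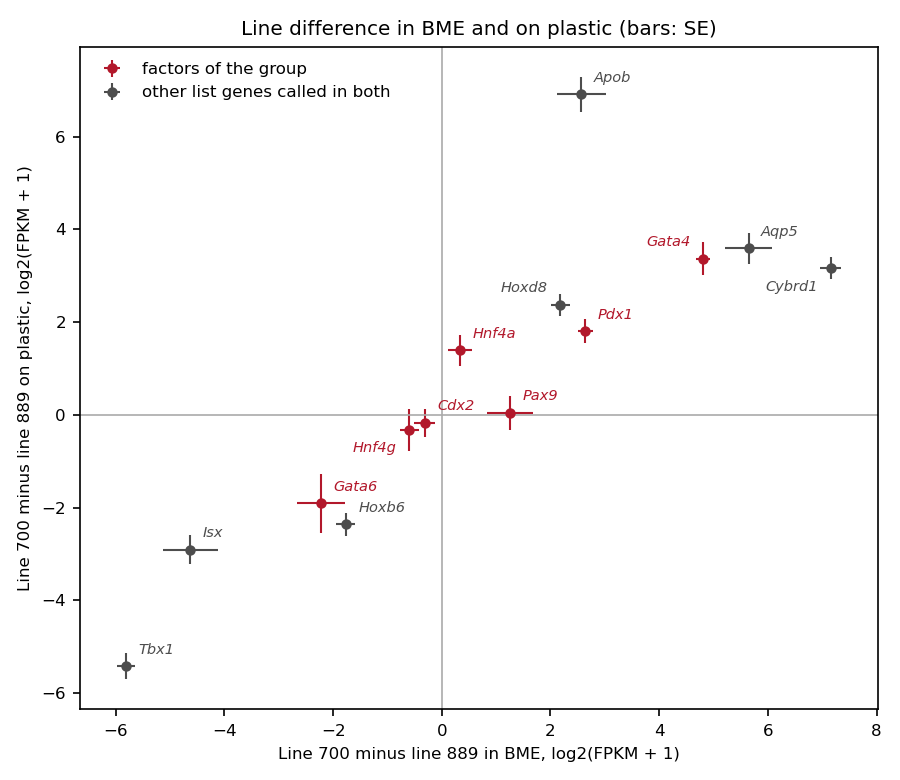
Difference of line 700 minus line 889 in BME (horizontal axis) and on plastic (vertical axis), as log2(FPKM + 1) from limma, with bars for 1 SE. Red points are the 7 factors tested in both environments and gray points the other 7 list genes called in both. Gata4 and Pdx1 lie to the upper right with Cybrd1, Aqp5 and Hoxd8, Gata6 lies to the lower left with Tbx1, Isx and Hoxb6, Apob lies highest on the plastic axis, Pax9 lies at 1.26 on the BME axis and Hnf4a at 1.39 on the plastic axis, and Cdx2 and Hnf4g lie within 1 of 0 on both axes.

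A score, the mean log2(FPKM + 1) of the 6 intestinal factors minus that of the 3 foregut factors, summed the balance of the group in each library. It lay between 1.32 and 3.10. With dox it was lower in 5 of 5 pairs, with differences of -0.49 in line 700 and -0.41 in line 889 in BME, and of -0.16, -0.61 and -0.61 in lines 560, 700 and 889 on plastic. The mock pair differed by -0.50. The foregut mean was higher by 0.56 to 1.35 in the dox pairs, almost all from Pax9, since Pdx1 was higher by at most 0.03 and Sox2 by at most 0.21. The intestinal mean was higher too, by 0.12 to 0.86, with the larger values in lines 560 and 889 on plastic, where Gata6 and Hnf4a were higher. In the dox pairs the lower score thus went with higher Pax9 and not with a lower mean of the intestinal factors. In the mock pair the intestinal mean differed by -0.08 and the foregut mean by 0.42.

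No gene of the other lists was called with dox in either environment. Of 19 other intestinal transcription factors tested in BME, 3 were higher and 7 lower in both dox pairs, with a median change of -0.12. Of 17 tested on plastic, 4 were higher and 1 lower in all 3 pairs, with a median of 0.27. Over all genes tested the medians were -0.01 and 0.01, 27.2% and 18.6% of genes were higher in every pair, and 29.5% and 18.7% lower. Onecut2, a factor of the duodenal epithelium, was the one with the steadiest difference. It was 2.81 and 1.66 FPKM untreated and 4.80 and 4.63 FPKM with dox in lines 700 and 889 in BME, and 0.43, 0.71 and 0.24 FPKM untreated and 4.02, 6.53 and 12.8 FPKM with dox in lines 560, 700 and 889 on plastic. Its limma change in BME was 0.81 (SE 0.20, adjusted p = 0.959), beside 2.48 on plastic (SE 0.39, adjusted p = 0.157). The mock pair of Onecut2 differed by 0.16, unlike that of Pax9.

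Among 12 other foregut factors tested in BME, 1 was higher and 7 were lower in both pairs (median -0.11), and among 10 on plastic 0 were higher and 2 lower in every pair (median -0.23). Pax8, a paired-box factor of the thyroid and kidney, stood opposite to Pax9. It was 11.5, 5.26 and 15.04 FPKM untreated and 2.92, 0.38 and 2.11 FPKM with dox in lines 560, 700 and 889 on plastic (limma change -2.08, SE 0.51, adjusted p = 0.371). In BME the Pax8 pairs differed by -0.85 and -1.27 in lines 700 and 889 and by -0.57 in the mock pair. Of 23 intestinal differentiation genes tested in BME, 12 were higher and 5 lower in both pairs (median 0.33), and of 21 on plastic 9 were higher and 1 lower in all 3 (median 0.38). Muc13, a transmembrane mucin, differed most among those higher in every pair, by 3.47 in BME (SE 1.37, limma adjusted p = 0.959), and its mock pair differed by 2.72.

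Levels in BME and on plastic come from tables that were normalized separately and were not tested against each other. Set side by side, the untreated libraries of lines 700 and 889 held 67.8 and 98.2 FPKM of Cdx2 in BME against 32.3 and 38.4 FPKM on plastic. For Hnf4a these were 105 and 109 FPKM against 35.6 and 8.92 FPKM, and for Hnf4g 3.82 and 7.59 FPKM against 0.848 and 0.795 FPKM. Gata4 was 76.8 and 2.14 FPKM against 44.2 and 4.59 FPKM, so it was higher on plastic in line 889. Gata6 was 10.5 and 26.9 FPKM against 9.18 and 14.7 FPKM. Untreated Pax9 was 9.38 and 3.43 FPKM against 3.59 and 1.81 FPKM, so it was lower on plastic in the same lines before dox.

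The genes whose pattern was most like that of each factor were taken over the 12 libraries, centred within environment, among 11977 genes. These values describe 12 libraries of 4 lines, which share lines and tables, and carry no test. Smpdl3a followed Pdx1 most closely (Pearson r = 0.999), before 2810459M11Rik (0.988) and Scara3 (0.985). For Gata4 they were Hmga1, Kcnk5 and Eid2 (0.979 to 0.981), and for Gata6 Dipk2a, 1010001N08Rik and Sstr2 (0.979 to 0.986). For Pax9 they were Adgrg1 (0.958), Cdkn1a (0.953) and Meis2 (0.943). Cdx2 was followed by Pdk1, Ggt6 and Dpp4 (0.947 to 0.973), Hnf4a by Ddc, Lgals2 and Eps8l3 (0.877 to 0.909), and Hnf4g by Mettl7b, Zmynd8 and Aoc1 (0.912 to 0.920). Within the group the closest pair was Gata4 with Pdx1 (0.977), then Cdx2 with Hnf4g (0.740), and the most opposed were Gata6 with Pdx1 (-0.706) and Gata6 with Gata4 (-0.657).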

How the data were processed

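RNA-Seq of 12 libraries was analysed from 1 FPKM table per environment. The FPKM values were deposited by the authors, each table normalized on its own 6 libraries. The submitters' processing notes say that the authors used kallisto, DESeq2 and the mm9 build, with versions not given in the sources used here. The deposited tables of the authors' own dox comparison (mean normalized counts, log2 fold changes, errors, p-values) were not used. The members, gene lists and tests were chosen with earlier results of these data known.

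Values were analysed as log2(FPKM + 1) where the mean FPKM of the fitted libraries was 0.5 or more. The test was limma 3.58.1 under R 4.3.3 (two-sided, eBayes with a trend), with Benjamini-Hochberg adjustment across every gene tested. Calls needed an adjusted p below 0.05 together with a change above 1 in size. Dox was compared with control in BME (2 against 4 libraries) and on plastic (3 against 3), and the change between environments as an interaction. The script was tested on simulated data. The design assumed no block, as the study states none. Libraries of 1 line come from the same organoids, so the line as a block was run beside this design. On plastic their deviations from the arm means correlated at r = 0.247 to 0.612, against -0.484 to 0.106 between different lines. In BME r was 0.744, a single value, because the deviations of 2 lines from their mean mirror each other. Nothing says that lines were cultured more than once, so p-values of the unblocked dox tests measure the spread between lines and libraries. The line difference gives each line its own term. Its p-values measure the spread between libraries within lines, with 1 line on each side. All members are described. From each list, genes could be named if called, among the 2 highest in level, or among the 2 largest differences in each direction that kept their sign in every pair. The text gives part of these, and the 3 genes most like each member. Effective depth was the number of fragments that the smallest steps of FPKM and annotated lengths (NCBIM37, GENCODE vM1) imply, and covers counting error only. Correlations and scores have no test.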

Additional observations from a re-analysis of the deposited data

Results flagged for a closer look

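Among the 4 BME control libraries, 5 of the 9 factors had 1 library set far from the other 3, with a gap above the 95% critical share of the range. Chance gives about 1 in 20 for independent libraries, but 2 of these 4 come from line 682, so that share does not apply as it stands. The rule was run on the 9 factors only. The share of all genes with such a gap was not counted, so whether the factors exceed it is not known. In untreated line 889, Gata4 was low at 2.14 FPKM against 75.5 to 76.8 FPKM, Gata6 high at 26.9 FPKM against 10.5 to 12.1 FPKM, and Pdx1 listed at 0 against 5.17 to 5.51 FPKM. Sox2 was 0.0254 FPKM in the same library, about 1 fragment, and listed at 0 in the other 3. Cdx1 was 10.1 FPKM in untreated line 700 and listed at 0 in the other 3. With 3 libraries at 0 any value above 0 is set apart, so the gaps of Sox2 and Cdx1 carry no weight as a test. In BME the dox library of line 889 also had low Gata4 (1.97 FPKM) and Pdx1 listed at 0, and that of line 700 had Cdx1 at 8.28 FPKM, while on plastic Cdx1 was listed at 0 in both libraries of line 700. The source of the line differences was not tested.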

How the results depend on the processing

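Across the alternatives run, Pax9 on plastic ranged from 2.95 to 3.51 and kept its direction, as did the Gata4, Pdx1, Cdx1 and Gata6 line differences in the tables where they were tested. Reversals were of values near 0 or of changes that mix lines. With the line as a block, with or without the mock library, the BME dox change was -0.10 for Cdx1, -0.12 for Cdx2, 0.092 for Gata4 and 0.017 for Pdx1, and the environment difference of Pdx1 was -0.13. With the mock library counted as dox, the BME changes were -0.067 for Cdx1, -0.21 for Cdx2, -0.055 for Hnf4a, 0.010 for Hnf4g, 0.058 for Gata4 and 0.012 for Pdx1. Cdx2 in BME was -0.079 without the mock library and -0.071 after quantile normalization. With lines 700 and 889 only, the environment difference was -0.14 for Hnf4g and -0.19 for Pdx1. Counts of called genes moved as follows. In BME 0 genes were called with the line as a block (157 at an unadjusted p), with the mock library left out, with both, or with it counted as dox, and 1 with a pseudocount of 0.1. On plastic 7 were called with the block, 10 with a pseudocount of 0.1 and 0 with no filter on low values, and 0 members with the block or without the filter. Without the filter, 5 genes were called between environments, and the plastic line difference had 0 genes and 0 members. The pairing by line changed no other call of a member. Leaving out 1 library gave 0 to 37 calls in BME and 0 to 55 on plastic, with 0 to 2 members on plastic. For the line difference it gave 0 to 1041 genes and 0 to 4 members in BME, and 0 to 270 genes and 0 to 2 members on plastic. A lone library of a line was then assumed to vary like the others. Single members that changed sign this way ranged, for the BME dox change, from -0.81 to 2.35 (Cdx1), -0.079 to 0.18 (Cdx2), -0.16 to 0.55 (Hnf4a), -3.54 to 1.43 (Gata4), -0.40 to 2.78 (Gata6) and -2.01 to 0.65 (Pdx1). For the plastic dox change they ranged from -1.04 to 0.18 (Cdx2), -0.38 to 0.74 (Hnf4g), -0.66 to 1.62 (Gata4) and -0.66 to 0.16 (Pdx1). For the environment difference they ranged from -1.08 to 0.14 (Cdx2), -0.17 to 0.90 (Hnf4a), -0.060 to 1.06 (Hnf4g), -0.79 to 4.19 (Gata4), -0.70 to 2.48 (Gata6) and -0.77 to 1.89 (Pdx1). For the line difference they ranged from -0.053 to 0.71 (Hnf4a) in BME, and on plastic from -0.43 to 0.094 (Cdx2), -0.94 to 0.31 (Hnf4g) and -0.49 to 0.59 (Pax9). The causes of these changes were not tested. Depth limits Sox2 and, outside line 700 in BME, Cdx1, which rest on 7 fragments or fewer.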

Other observations

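Several genes of the stomach were, like Gata4 and Pdx1, higher in line 700 than in line 889 in BME. Of 18 gastric genes listed 10 were tested, and 7 of these were called higher in line 700 than in line 889 (Aqp5, Atp4a, Ctse, Gkn3, Pgc, Tff2 and Vsig1) and 0 higher in line 889, where 9.46% of all genes were called in either direction. The other 3 were not called, with differences of 1.32 for Psca, -0.22 for Gkn1 and -1.93 for Anxa10 (SE 0.53, limma adjusted p = 0.0639). On plastic, 1 of 7 (Aqp5) was called. These genes were counted after their values had been seen, and no list test was run. With dox, 0 gastric genes were called by limma in either environment.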
